A study of Mus musculus with 48 samples.

Results

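The cerebral cortex of APOE4 female mice was compared between 4 animals that inhaled nPM and 4 that breathed filtered air, by RNAseq. nPM is the nano-sized fraction of urban airborne particulate matter, collected on filters, resuspended and aerosolized again for exposure. The 8 animals are those whose labels give the genotype E4 and the sex female, with the treatment, and they are 8 of the 48 samples of the series. This group and the gene lists below were chosen with earlier results of these data known. The controls carry the numbers 7, 21, 26 and 38, and the nPM mice 08, 23, 27 and 39. All were 6 months old and came from the ApoE-TR strain, in which human APOE4 stands in place of the mouse Apoe gene on a C57BL/6J background, so the controls carry the human allele as well. Exposure lasted 15 weeks, for 5 h a day on 3 days a week. The rest of the series holds APOE3 females, APOE4 and APOE3 males of the same exposure, and C57BL/6J (B6) mice of both sexes, 4 months old and exposed for 8 weeks. Levels are given as CPM (counts scaled to library size) after TMM scaling. Those of the label checks Xist and Ddx3y, and the summed CPM of lists, are as deposited, without TMM scaling. Differences are log2(CPM + 0.5), nPM minus filtered air, with the standard error (SE) of the limma fit. A gene was tested if it had at least 1 read in each of the 8 mice, which held for 16545 of the 18943 genes listed. A gene silent in 1 group is thereby left out.

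Inhaled particles act on the brain through the lung, the circulation and the olfactory route. In brain the vascular wall is a known target of circulating inflammatory mediators: endothelial cells form the blood-brain barrier, carry glucose inward by GLUT1 (Slc2a1), and respond to interferons. Interferons act through JAK kinases and STAT factors, which induce GTPases of the IRG and GBP families, antiviral sensors and antigen presentation genes from promoters that hold an interferon-stimulated response element (ISRE). APOE4 is the major common genetic risk factor for late-onset Alzheimer disease and is known for effects on lipid transport, microglia and the vascular barrier.

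Reads recovered from the CPM and summed over the genes listed numbered 18984254 to 22274205 a mouse. Labels were checked first. Xist, expressed from the inactive X chromosome, lay between 607 and 801 CPM in the 8 mice. The Y-linked Ddx3y lay at 0.0302 to 0.0361 CPM, the value of a gene without reads, against 28.5 CPM or more in every male of the exposure. The Apoe row, which collects what aligned to the mouse gene, was 20.4 ± 2.88 CPM (SD, n = 4) in controls and 17.2 ± 2.09 with nPM (log2 -0.24, SE 0.11), and it checks neither human allele. Control 21 stood apart from the other 7 mice: on the first principal component, with 31.7% of the variance, it lay at -30.2 and the others between -8.41 and 15.4. Summed CPM of 18 microglia markers was 843 in control 21 and 376 to 435 in the others. Trem2, a lipid receptor of microglia, was 48.3 CPM in control 21 and 8.10 to 11.5 CPM elsewhere. Gfap, the intermediate filament of astrocytes, was 457 CPM in control 21 and 58.8 to 110 CPM elsewhere. Control 21 is therefore also left out below.

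No gene passed a 5% false discovery rate (FDR) between nPM and filtered air in limma, the smallest adjusted p being 0.366, for Tgtp1, and 0.753 for the next. edgeR passed none and DESeq2 passed Tgtp1 alone. At an unadjusted p under 0.005, 43 of 16545 genes (0.26%) were called, 19 increased (0.115%) and 24 decreased (0.145%), where 82.7 would be expected if no gene responded. At an unadjusted p under 0.05 there were 928 genes (5.61%), 469 higher (2.83%) and 459 lower (2.77%), against 827 expected. In 571 genes (3.45%) the groups did not overlap, with nPM higher in 264 (1.6%) and lower in 307 (1.86%). The counts of list members given below are to be read against these shares of all genes. With 1 mouse left out these shares moved as well. Of the same 16545 genes, 308 (without nPM 08) to 721 (without control 38) were then lower at p under 0.05. Those higher numbered 242 (without control 21) to 881 (without control 38). List counts with a mouse left out are to be read against those counts. Of the 43 called genes, 39 had groups that did not overlap, 17 increased and 22 decreased. The size of the called log2 differences ran from 0.17 to 0.94, with a median of 0.40. For 4 against 4 mice without overlap, a 2-sided exact permutation test of a single gene gives p = 0.0286, the smallest that 70 labelings allow. p-values measure the spread between these 8 animals. In what follows "increased" and "decreased" are used of the 43 called genes, which have p under 0.005 and an adjusted p of 0.366 or more, and other genes are given by their values and SE.

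The calls were repeated with each mouse left out in turn. All 43 genes kept their direction in all 8 fits, and no log2 difference moved by more than 1.39 times. Kept direction was close to fixed in advance, since 39 of the 43 had groups that did not overlap and all were picked on these same mice. It therefore adds no support for the calls. The call held in all 8 fits for 7 genes, Tgtp1, Il10rb, A2m, Eci3, Fbxl21, Sycp2 and 1810041L15Rik, and in at most 4 of the 8 for 30 genes. Prox1 lost its call in each fit, and Egln1, Ly6c2, Cav1, Oxtr, Nos1 and Nptxr in 7 of the 8. Slc2a1 and St6gal2 lost theirs without nPM 27 alone. Without control 21 the call held for 19 of the 43 genes, 11 decreased and 8 increased. Among the genes described below it was then lost by Egln1 (log2 -0.17), Arsg (-0.23), Igfbp2 (-0.52), Slc22a18 (-0.36), Ly6a (-0.43), Ly6c2 (-0.43), Cav1 (-0.33), Ptrf (-0.35) and Acacb (-0.39) of the decreased genes. Of the increased genes it was lost by Mob1b (0.33), Prox1 (0.29), Tmem253 (0.40), Oxtr (0.31), Nos1 (0.26) and Nptxr (0.29).

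**Figure D1:**
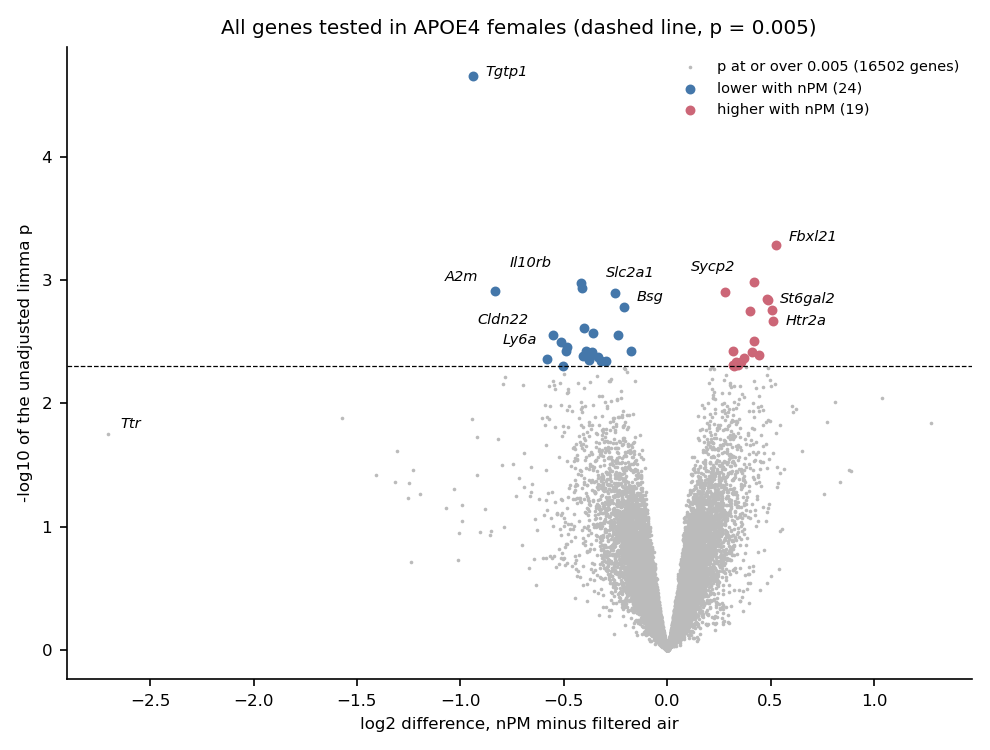
Each point is 1 of 16545 genes, with the log2 difference (nPM minus filtered air) on the x axis and -log10 of the unadjusted limma p on the y axis. Tgtp1 lies above all others, the 43 genes above the dashed line are coloured, and Ttr, a choroid plexus gene, has the lowest log2 difference (-2.70) below the line.

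Tgtp1 had the smallest p. It encodes an interferon-induced GTPase of the IRG family (chromosome 11, 48985329 to 48992246, minus strand, mm10, as are the gene positions that follow). Controls 7, 21, 26 and 38 had 1.43, 1.56, 1.21 and 1.72 CPM, and nPM mice 08, 23, 27 and 39 had 0.431, 0.779, 0.467 and 0.466 CPM. Every control lay above every nPM mouse, the mean fell from 1.48 ± 0.214 to 0.536 ± 0.163 CPM (-63.8%), and the log2 difference was -0.94 (SE 0.13). The level is low, the lowest library holding 12 reads of it. Control 21 was not the highest control, and without it the log2 difference was -0.92 and still under p of 0.005. Tgtp2, a close copy on the same chromosome with which reads could be exchanged, was at 1.30, 1.40, 0.510 and 1.39 CPM in controls and 0.696, 0.850, 0.467 and 0.717 CPM with nPM (log2 -0.44, SE 0.20), control 26 lying among the nPM mice.

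The promoter of Tgtp1 is shown with those of related interferon-induced genes because the members of this family share the element through which interferon acts. The windows come from RefSeq (GRCm38.p6), 5′ to 3′ on the strand of the gene. Capitals mark every ISRE core in the window, searched as GAAANNGAA on both strands.

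Tgtp1, chr11:48992285-48992353, minus strand: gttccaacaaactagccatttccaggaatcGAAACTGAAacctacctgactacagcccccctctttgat

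Tgtp2, chr11:49064244-49064312, minus strand: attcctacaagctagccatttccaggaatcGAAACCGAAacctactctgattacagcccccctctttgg

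Irgm2, chr11:58214883-58214951, plus strand: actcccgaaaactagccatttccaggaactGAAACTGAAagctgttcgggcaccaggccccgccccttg

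Gbp3, chr3:142559970-142560038, plus strand: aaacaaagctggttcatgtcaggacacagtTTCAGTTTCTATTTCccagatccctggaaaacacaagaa

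The core ends 69 bases before the start site in Tgtp1, 62 in Tgtp2, and 56 in Irgm2. Gbp3 holds 2 overlapping cores in the opposite direction, which end 36 and 30 bases before the start site. Among promoters of 300 bases matched by symbol, 1075 of 12460 (8.63%) held the core. It was present in 17 of the 28 matched promoters of the interferon response list (60.7%), in 2 of 18 matched promoters of decreased genes (11.1%) and in 2 of 14 of increased genes (14.3%). The match is a description of the letters and shows no binding.

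Il10rb, which encodes the shared receptor chain of interleukin-10, interleukin-22 and type III interferon (chromosome 16, 91406235 to 91425834), was the other decreased member of the interferon list. It had 6.18, 6.05, 5.97 and 6.42 CPM in controls 7, 21, 26 and 38, and 3.98, 4.36, 4.61 and 5.02 CPM in nPM mice 08, 23, 27 and 39. The groups did not overlap, and the controls lay within 0.5 CPM of each other (6.15 ± 0.200 against 4.49 ± 0.436 CPM, -27.0%, log2 -0.42, SE 0.09). Left out, control 21 changed the log2 difference to -0.43, and Il10rb remained called.

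Interferon response genes were lower with nPM as a list. All 36 members were tested, 35 lay below 0 against 49.8% of all genes, and the median log2 difference was -0.38 against 0.00 over all genes. Of the 36, 11 had p under 0.05 in the lower direction (30.6%, against 2.77% of all genes), none in the higher, and 2 were called. In 9 members every nPM mouse lay below every control, as in 1.86% of all genes. Leaving out other mice gave from 8 members at p under 0.05 (without nPM 08) to 18 (without control 26). Control 21 was far above the others on this list: its mean log2 deviation was 0.79, the other controls lay between -0.03 and 0.04, and the nPM mice between -0.30 and -0.14. Without control 21 the median was -0.16, 34 of 36 members lay below 0, 9 had p under 0.05 (322 lower of 16620 genes tested), and 5 had p under 0.005, namely Tgtp1, Il10rb, Oasl2, Iigp1 and Gbp3. In bulk tissue fewer cells of a type and less RNA per cell cannot be told apart.

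Among the induced effectors, Oasl2, an antiviral oligoadenylate synthetase-like protein, was 1.56, 5.59, 1.34 and 1.36 CPM in controls and 0.630, 0.885, 0.968 and 0.968 CPM with nPM. Control 21 was several times the other controls, and these 3 still lay above the nPM mice. The log2 difference of Oasl2 was -0.92 (SE 0.33) with control 21 and -0.50 (SE 0.13) without it. Gbp3, a guanylate-binding protein, was 1.86, 5.49, 2.74 and 2.47 CPM in controls and 1.29, 1.70, 1.57 and 1.36 CPM with nPM (log2 -0.79, SE 0.24, and -0.52, SE 0.14, without control 21). Iigp1, an IRG GTPase, was 1.03, 2.67, 1.08 and 1.24 CPM in controls and 0.663, 0.814, 0.534 and 0.717 CPM with nPM (log2 -0.70, SE 0.21, and -0.46, SE 0.12, without control 21). Irf7, the factor that amplifies type I interferon output, was 0.764, 2.99, 0.734 and 0.875 CPM in controls and 0.365, 0.708, 0.401 and 0.323 CPM with nPM (log2 -0.82, SE 0.30, and -0.46, SE 0.14, without control 21). In Gbp3, Iigp1 and Irf7, as in Oasl2, the groups did not overlap. Of genes that act upstream, Stat2 had a log2 difference of -0.05 (SE 0.09), and the receptor chain Ifnar1 of 0.02 (SE 0.06), the highest of the list. Irgm2, whose promoter is shown above, had a log2 difference of -0.22 (SE 0.16), and of -0.07 (SE 0.11) without control 21.

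Antigen presentation genes, many of which interferon induces, had a median log2 difference of -0.32, with 19 of 20 members below 0 and 3 lower at p under 0.05 (against 2.77% of all genes). The 3 became 1 without nPM 08, 5 without control 7, 9 without control 38 and 10 without control 26. Over all genes, the 459 lower became 308, 382, 721 and 714 in the same fits. H2-K1, a classical class I heavy chain, was 16.9, 35.0, 15.3 and 16.3 CPM in controls and 11.7, 14.2, 12.2 and 13.8 CPM with nPM, with no overlap (log2 -0.59, SE 0.22, and -0.32, SE 0.09, without control 21). Ciita, the activator of class II genes, was the member above 0 (log2 0.31, SE 0.15). Leaving out control 21 moved the median of the list to -0.18, with 14 of 20 members below 0.

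**Figure D2:**
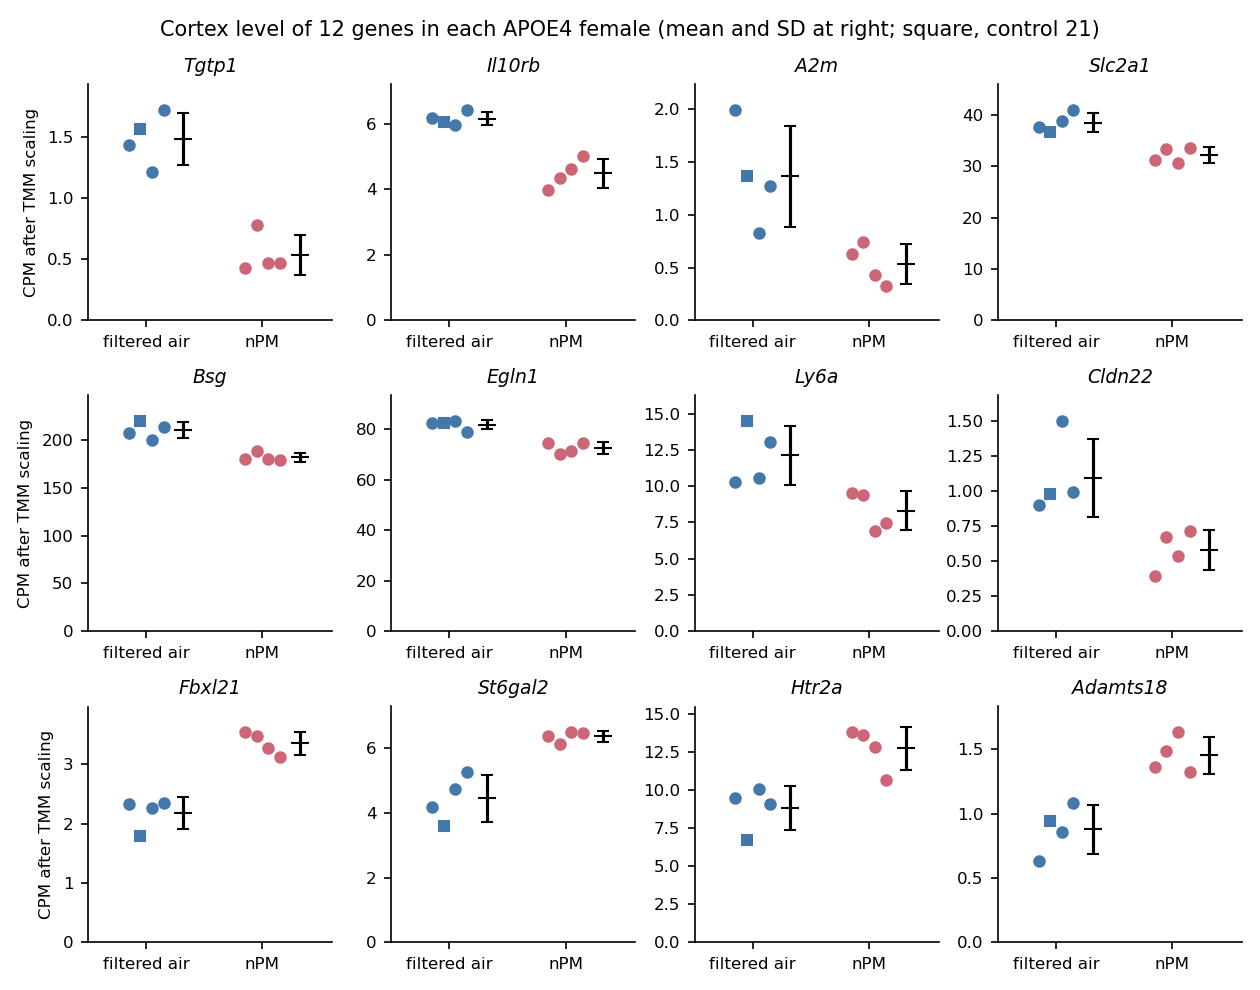
The 12 panels plot CPM after TMM scaling for each of 4 filtered air (blue) and 4 nPM (red) APOE4 females, with the mean and SD at the right of each group and control 21 as a square. Groups do not overlap in any panel: the upper 8 genes are lower with nPM, from -11.3% (Egln1) to -63.8% (Tgtp1), and the lower 4 are higher, from 43.01% (St6gal2) to 64.98% (Adamts18).

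A2m, the proteinase inhibitor alpha-2-macroglobulin, also decreased (chromosome 6, 121636173 to 121679238). It was 1.99, 1.37, 0.830 and 1.27 CPM in controls and 0.630, 0.744, 0.434 and 0.323 CPM with nPM. Control 26 was closest to the nPM mice, and the groups did not overlap (log2 -0.83, SE 0.19). The lowest library held 8 reads.

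Slc2a1 and Bsg were the decreased genes of the list of glucose and lactate transport and glycolysis. Slc2a1 encodes GLUT1, the glucose transporter of the blood-brain barrier (chromosome 4, 119108745 to 119137330). It was 37.6, 36.5, 38.7 and 40.96 CPM in controls and 31.2, 33.3, 30.6 and 33.6 CPM with nPM, with no overlap (38.5 ± 1.89 against 32.2 ± 1.51 CPM, -16.4%, log2 -0.25, SE 0.06). With control 21 left out it was -0.28, and the gene was still called. Bsg, which encodes basigin, the chaperone that carries lactate transporters to the membrane, was 207, 220, 200 and 213 CPM in controls and 180, 188, 180 and 178 CPM with nPM (-13.4%, log2 -0.21, SE 0.05). Its call held in 4 of the 8 fits that left out 1 mouse, and was lost without control 38, nPM 08, nPM 27 or nPM 39. The other 21 of 23 glucose transport and glycolysis genes did not reach p under 0.05, and the median of the list was -0.03, near that of all genes.

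Slc2a1 is also a target of hypoxia-inducible factors, and 2 further genes of that system were lower. Egln1, the prolyl hydroxylase that marks HIF subunits for degradation, decreased from 82.5, 82.6, 83.3 and 79.0 CPM to 74.4, 70.1, 71.3 and 74.4 CPM (-11.3%, log2 -0.17, SE 0.05). Epas1, which encodes the HIF2A subunit abundant in endothelium, was 68.7, 71.7, 63.8 and 66.5 CPM in controls and 59.2, 62.2, 55.6 and 59.5 CPM with nPM (log2 -0.19, SE 0.06, short of a call). Neither gene had overlapping groups. Hif1a (log2 -0.03, SE 0.07) and Vegfa (log2 0.05, SE 0.13) lay near 0. Of 18 hypoxia response genes, 3 had p under 0.05, all lower, and the median was -0.04.

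Endothelial markers were lower with nPM and did not follow control 21. Of 22 members 21 lay below 0, the median log2 difference was -0.31, and 8 had p under 0.05 in the lower direction (36.4%, against 2.77% of all genes), namely Ly6a, Ly6c1, Vwf, Ocln, Abcb1a, Mfsd2a, Slco1a4 and Pecam1. The median was -0.39 when control 21 was left out, all 22 then lay below 0 and 9 had p under 0.05. Over the 8 fits that each left out 1 mouse, the median ran from -0.44 (without nPM 23) to -0.24 (without control 38), and the members at p under 0.05 from 13 to 4. The nPM mice were not alike: the mean log2 deviation of the list was -0.12, 0.13, -0.34 and -0.29 in nPM 08, 23, 27 and 39, so that nPM 23 lay among the controls, which stood at 0.03, 0.08, 0.17 and 0.35. Summed CPM of the list was 193 to 240 in controls and 150 to 208 with nPM.

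Ly6a, a GPI-anchored antigen of brain endothelium that interferon also induces, was the endothelial marker that decreased. It was 10.3, 14.5, 10.6 and 13.1 CPM in controls and 9.52, 9.38, 6.91 and 7.45 CPM with nPM, without overlap (log2 -0.52, SE 0.14, and -0.43, SE 0.13, without control 21, where it was no longer called). Its neighbours on chromosome 15 were Ly6c1 (log2 -0.55, SE 0.16, short of a call) and Ly6c2 (log2 -0.48, SE 0.13, called), and as members of a family of near copies they may share reads. Vwf, the von Willebrand factor of endothelial granules, was 2.09, 1.98, 3.38 and 3.26 CPM in controls and 1.72, 1.84, 1.34 and 1.68 CPM with nPM (log2 -0.54, SE 0.17). Among barrier genes, the tight junction protein Ocln had a log2 difference of -0.41 (SE 0.13), the efflux pump Abcb1a of -0.41 (SE 0.15), the lipid transporter Mfsd2a of -0.34 (SE 0.14) and the anion transporter Slco1a4 of -0.36 (SE 0.15), all at p under 0.05. Cldn5, the main claudin of the barrier, was 9.40, 11.3, 10.7 and 10.8 CPM in controls and 9.15, 12.1, 5.94 and 4.37 CPM with nPM (log2 -0.49, SE 0.24, over p of 0.05): nPM 27 and 39 were lowest and nPM 23 was highest of all 8. Kdr, the VEGF receptor, had a log2 difference of 0.04 (SE 0.21).

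The caveolar genes Cav1 (9.61 ± 0.273 against 7.54 ± 0.873 CPM, log2 -0.34, SE 0.09) and Ptrf (11.7 ± 1.18 against 8.94 ± 0.965 CPM, log2 -0.37, SE 0.10), which form and coat the membrane pits of endothelium, decreased, and were named after their values were seen. Pericyte and smooth muscle markers had a median of -0.08, with 3 of 14 lower at p under 0.05, which became none without nPM 27 and 1 without control 7, nPM 08 or nPM 39. Igfbp2, a binding protein of insulin-like growth factors, decreased as well (22.5 ± 4.79 against 15.7 ± 1.55 CPM, log2 -0.49). It is the called member of the meningeal and fibroblast markers described below. Controls 7, 21, 26 and 38 had 22.7, 20.8, 17.6 and 29.0 CPM of it. Its call held in 2 of the 8 fits that left out 1 mouse, and the part of meningeal tissue in it was not tested. Other decreased genes with a textbook role were Arsg, a lysosomal sulfatase (22.2 ± 0.923 against 18.8 ± 0.752 CPM, log2 -0.24), Eci3, an isomerase of fatty acid oxidation (0.622 ± 0.0374 against 0.344 ± 0.0595 CPM, log2 -0.41), and Cldn22, a claudin (1.09 ± 0.275 against 0.580 ± 0.144 CPM, log2 -0.55). Slc22a18 (log2 -0.40) and Smco4 (log2 -0.36) completed the 10 decreased genes of smallest p, both under 1 CPM. Acacb (log2 -0.41) and Ucp2 (log2 -0.58), which act in fatty acid and mitochondrial metabolism, were decreased as well and were named after their values were seen.

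**Figure D3:**
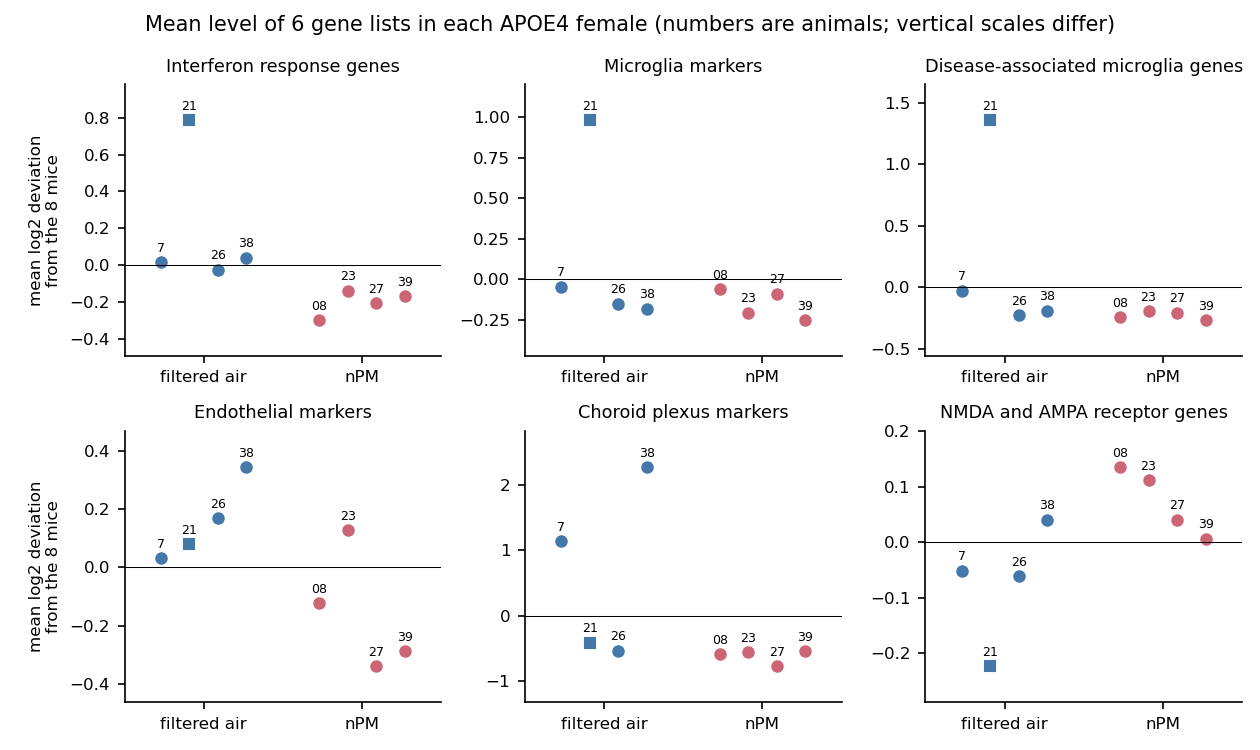
Each point is 1 APOE4 female and the y axis is the mean log2 deviation of a list from its mean over the 8 mice, for 6 lists with their own vertical scales. Control 21 (square) lies at 0.79 on the interferon list, 0.98 on microglia markers and 1.36 on disease-associated microglia genes, controls 7 and 38 lie at 1.14 and 2.27 on choroid plexus markers, and nPM 27 and 39 lie lowest on endothelial markers.

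Markers of other cell types stood apart in single mice. Microglia markers had a median log2 difference of -0.26 with all 18 below 0 and no member at p under 0.05. When control 21 was left out the median was -0.02 and 12 of 18 lay below 0. Disease-associated microglia genes are a lipid-handling and lysosomal set that Trem2 governs in part. Their median was -0.38 with 16 of 17 below 0, and -0.06 without control 21. Among them the lysosomal protease Ctsd was 273, 671, 245 and 255 CPM in controls and 247, 230, 244 and 242 CPM with nPM, so that only control 21 stood apart. Lgals3 (log2 -0.46, SE 0.15) and Cd9 (log2 -0.46, SE 0.17) had no overlap and p under 0.05, also without control 21 (log2 -0.30, SE 0.10, and -0.25, SE 0.07). Choroid plexus markers had the lowest median of the 45 lists with a tested member (-1.07, 13 of 13 below 0, 8 lower at p under 0.05). Ttr, the thyroid hormone carrier that the choroid plexus secretes, was 311, 34.4, 30.02 and 1097 CPM in controls and 31.1, 22.5, 11.5 and 22.6 CPM with nPM: controls 7 and 38 were far above the other 6 mice. Summed CPM of the list was 43.01 to 1220 in controls and 23.7 to 44.2 with nPM, and the median ran from -1.57 without control 26 to -0.63 without control 38, with 13 and 3 members lower at p under 0.05. How much choroid plexus each dissected piece held was not measured, and the part of these markers in the other results was not tested. Meningeal markers had a median of -0.26 (15 of 15 below 0), with control 7 highest (mean log2 deviation 0.67) and nPM 08 lowest (-0.60). Their median was -0.13 with 10 of 15 below 0 without control 7, and -0.10 with 11 of 15 without nPM 08. Oligodendrocyte markers had a median of -0.13 (15 of 15 below 0, none at p under 0.05) and of -0.07 without control 21, with 12 of 15 below 0. The median was -0.02 for excitatory neuron markers and 0.23 for striatal markers. The striatal median was -0.08 without nPM 08, the highest mouse on that list, and 0.78 without nPM 39, the lowest.

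Increased genes were led by Fbxl21, the F-box protein that sets the stability of the clock repressors CRY1 and CRY2 (chromosome 13, 56522508 to 56537786). It was 2.32, 1.79, 2.27 and 2.35 CPM in controls and 3.55, 3.47, 3.27 and 3.12 CPM with nPM, without overlap (53.6%, log2 0.53, SE 0.11). Without control 21, the lowest control, the log2 difference was 0.45 and the gene remained called. The median of the list of clock genes was 0.01. St6gal2, a sialyltransferase that caps N-glycans, was 4.18, 3.61, 4.75 and 5.28 CPM in controls and 6.37, 6.13, 6.51 and 6.49 CPM with nPM (43.01%, log2 0.48, SE 0.11). The nPM mice lay within 0.4 CPM of each other and above all controls. In the list of 18 sialyltransferases and glycan enzymes, 4 were higher at p under 0.05 (against 2.83% of all genes) and none lower. The 4 became 1 without control 21 or nPM 08, and 2 without control 7 or nPM 27.

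Htr2a, the serotonin 2A receptor of cortical pyramidal cells, was 9.46, 6.73, 10.1 and 9.08 CPM in controls and 13.8, 13.6, 12.8 and 10.7 CPM with nPM, without overlap (44.2%, log2 0.51, SE 0.13, and 0.39 without control 21, where it remained called). Adamts18, a secreted metalloproteinase, rose from 0.880 ± 0.190 to 1.45 ± 0.141 CPM (log2 0.51). Sycp2, a protein of the meiotic chromosome axis, rose from 0.812 ± 0.0423 to 1.25 ± 0.0926 CPM (log2 0.42), and Mob1b, a Hippo pathway adaptor, from 6.73 ± 0.357 to 8.54 ± 0.640 CPM (log2 0.32). The remaining increased genes of smallest p were 1810041L15Rik (log2 0.28), Gm14305 (log2 0.49), Mir6390 (log2 0.40) and Tmem253 (log2 0.42). Mir6390 and Tmem253 had as few as 1 and 2 reads in a library. Prox1, a homeobox factor of dentate granule cells and some interneurons, rose from 4.56 ± 0.282 to 5.83 ± 0.371 CPM (log2 0.32, SE 0.09). It stood in the list of 14 hippocampal and thalamic markers, of which 9 lay below 0 and 5 above, with a median of -0.09. Slc17a6 of that list had a log2 difference of -0.43 (SE 0.17). Oxtr, the oxytocin receptor (log2 0.33), Nos1, the neuronal nitric oxide synthase (log2 0.32), and Nptxr, a pentraxin receptor that clusters AMPA receptors (log2 0.34), increased too and were named after their values were seen.

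Glutamate receptor genes leaned higher by small amounts. Of 18 NMDA and AMPA receptor genes 16 lay above 0, the median log2 difference was 0.12, and 6 had p under 0.05, all higher (33.3%, against 2.83% of all genes). The AMPA subunit gene Gria2 was 469, 426, 479 and 476 CPM in controls and 544, 516, 514 and 505 CPM with nPM, and Gria3 205, 220, 213 and 220 CPM in controls and 235, 251, 226 and 227 CPM with nPM. Both had groups without overlap, with log2 differences of 0.17 (SE 0.06) for Gria2 and 0.13 (SE 0.05) for Gria3. The NMDA subunit gene Grin2b was 25.0, 11.5, 16.6 and 22.0 CPM in controls and 27.8, 34.9, 25.6 and 24.9 CPM with nPM, so that control 7 lay among the nPM mice (log2 0.62, SE 0.20). Grin1, the obligate NMDA subunit, was 214 ± 25.7 against 229 ± 18.5 CPM (log2 0.10, SE 0.09). The median was 0.09 without control 21, with 3 members at p under 0.05, and without control 7 there were 3 as well. Metabotropic glutamate and kainate receptor genes had a median of 0.19, with 13 of 14 above 0 and 3 higher at p under 0.05. Without control 21 the median was 0.11 with 1 at p under 0.05, and without nPM 08 it was 0.12 with 2. The members at that p numbered 5 without control 38 and 7 without nPM 39. Axon guidance genes had a median of 0.10 with 7 of 36 higher at p under 0.05, led by Epha5 (log2 0.22, SE 0.07, no overlap). The 7 became 1 without control 21, 2 without nPM 08, 3 without nPM 23 and 4 without nPM 27. Over all genes, the 469 higher became 242, 259, 340 and 361 in the same fits. They became 525 without control 7, 702 without control 26, 715 without nPM 39 and 881 without control 38. The counts of the other lists in this paragraph are to be read beside these. Immediate early genes, which neuronal firing induces, had a median of 0.11, with 3 of 25 higher at p under 0.05. These became none without control 7 or nPM 27, 1 without control 21 or nPM 08, 6 without control 38 and 7 without control 26. Among them Npas4 was 6.01, 8.91, 22.2 and 24.9 CPM in controls and 22.0, 23.6, 25.6 and 24.8 CPM with nPM, so that controls 7 and 21 were low and controls 26 and 38 were at the level of nPM.

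Transcript length moved with the groups. Over 16009 genes with a known length, cut into 4 classes of like number from short to long, the median log2 differences were -0.03, -0.02, 0.00 and 0.04. The slope of log2 level on log2 length was -0.0532 in control 21, -0.0119 in control 7, and 0.00134 to 0.0207 in the other 6 mice. The part of length in the results for receptor and respiratory chain genes was not tested.

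Nuclear genes of oxidative phosphorylation, which are mostly short, were slightly lower. Of 74 members 72 lay below 0, the median was -0.11, and 14 had p under 0.05, all lower (18.9%, against 2.77% of all genes), with none called. Atp5k, a subunit of ATP synthase, was 21.4, 21.5, 18.4 and 18.3 CPM in controls and 15.6, 15.1, 17.6 and 17.1 CPM with nPM (log2 -0.27, SE 0.08). Over the list controls 7 and 21 were highest (mean log2 deviation 0.15 in each), and nPM 27 (0.04) lay above controls 26 and 38 (-0.03 and -0.04). The members at p under 0.05 numbered 3 without nPM 23, 4 without control 21, 5 without control 7, 6 without nPM 39 and 7 without nPM 08, and 23, 24 and 26 without control 26, nPM 27 and control 38. Over all genes, the 459 lower became 391, 322, 382, 485 and 308 in the first of these fits, in the same order. They became 714, 349 and 721 without control 26, nPM 27 and control 38. Cholesterol synthesis genes had a median of -0.14, with 5 of 25 lower at p under 0.05, and -0.05 with 1 lower without control 21. Without nPM 08 the median was -0.08 with 1 lower.

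**Figure D4:**
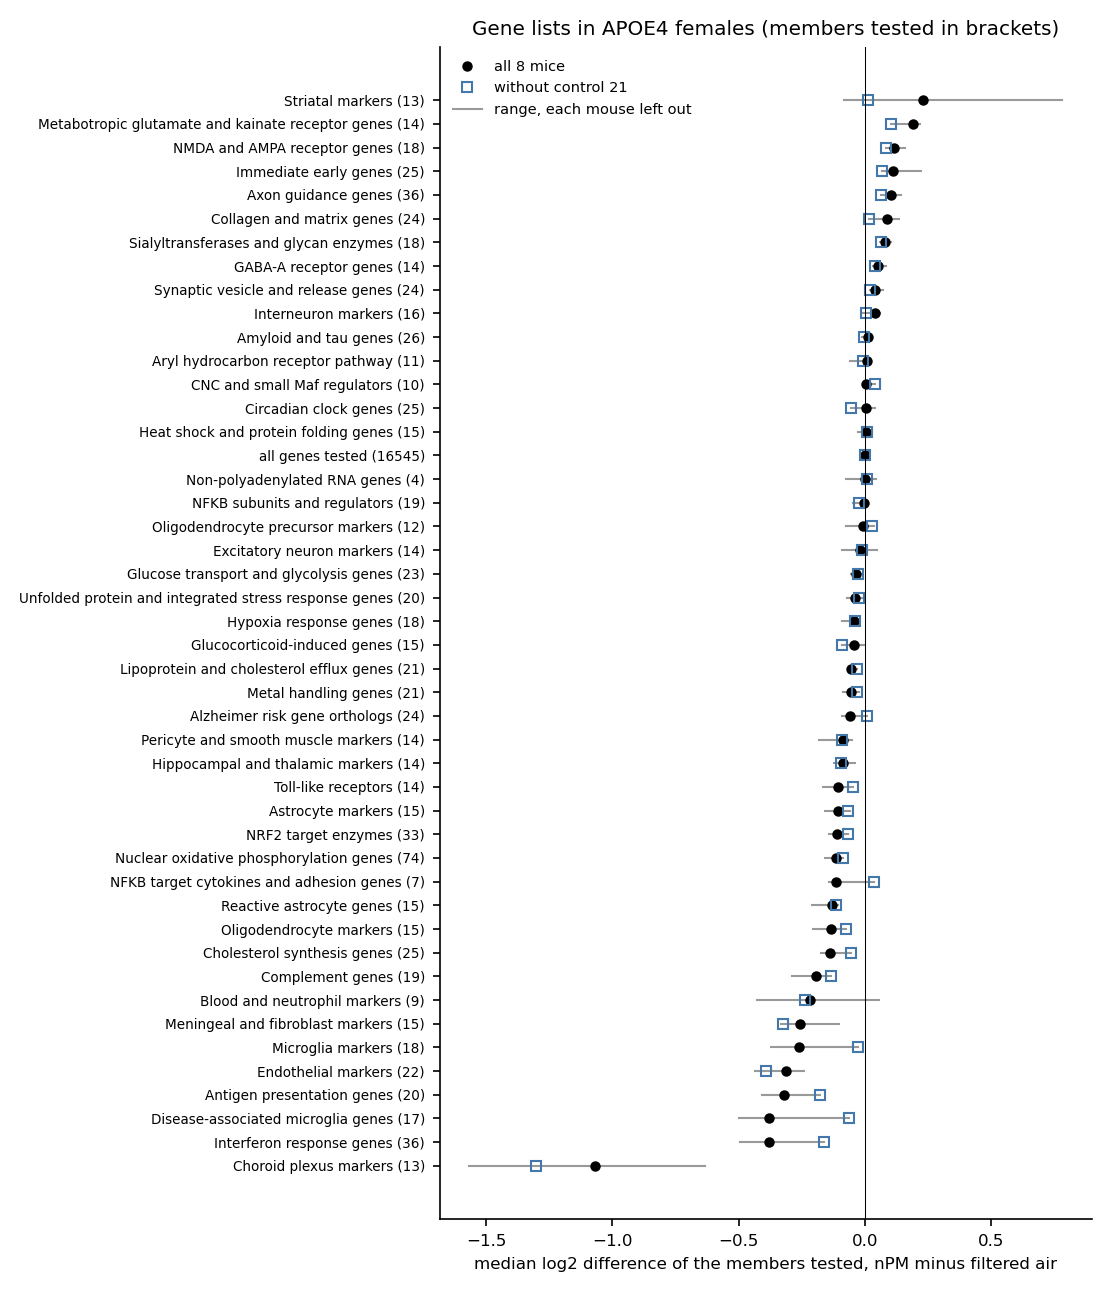
Each row is 1 of 45 gene lists, or all genes, and the x axis is the median log2 difference (nPM minus filtered air) of the members tested, in all 8 mice (dots) and without control 21 (squares), with the range over the fits that left out each mouse (lines). Choroid plexus (-1.07), interferon (-0.38) and disease-associated microglia (-0.38) lists lie lowest, and without control 21 the interferon list moves to -0.16, microglia markers to -0.02 and endothelial markers to -0.39.

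The study asked about NRF2 antioxidant and NFKB inflammatory pathways. Of 33 NRF2 target enzymes none was called, 28 lay below 0 with a median of -0.11, and 2 had p under 0.05, Gsta4, a glutathione transferase (log2 -0.26, SE 0.09), and Tkt, the transketolase (log2 -0.14, SE 0.05). Controls 7 and 21 were highest on this list (mean log2 deviation 0.16 in each), and the other 6 mice lay between -0.09 and -0.01. The median was -0.07 without control 21, with no member at p under 0.05, and -0.07 without control 7, with 23 of 33 below 0. Nfe2l2, which encodes NRF2, was 13.1 ± 1.53 against 11.8 ± 0.444 CPM (log2 -0.14, SE 0.09), and Gclc, its target in glutathione synthesis, 34.7 ± 1.65 against 35.7 ± 1.97 CPM (log2 0.04, SE 0.06). None of 19 NFKB subunits and regulators had p under 0.05. The log2 difference was 0.00 (SE 0.09) for Nfkb1 and -0.07 (SE 0.09) for Rela. Of 22 NFKB target cytokine and adhesion genes 7 had a read in every mouse, and 1 of these had p under 0.05, in the higher direction, and none without control 21. Among genes of amyloid and tau, App had a log2 difference of -0.11 (SE 0.09), Bace1 of 0.07 (SE 0.05), Mapt of 0.02 (SE 0.05) and Gsk3b of 0.11 (SE 0.06). The complement receptor C3ar1 was 3.32 ± 2.39 against 1.82 ± 0.207 CPM (log2 -0.55, SE 0.30). An SE of 0.05 to 0.10 on the log2 scale for abundant genes sets what 4 animals a side could show.

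The nPM response of APOE4 females was then set against that of APOE3 females, by the genotype by treatment term over 16 females, and against that of APOE4 males, by the sex by treatment term over 16 APOE4 mice. The differences share the APOE4 females. None passed a 5% FDR (smallest adjusted p 0.389 against APOE3 females and 0.957 against APOE4 males, limma). At an unadjusted p under 0.005 there were 83 of 16089 genes (0.516%) against APOE3 females, near the 80.4 expected, and 32 of 16348 (0.196%) against APOE4 males, below the 81.7 expected. APOE3 female controls varied widely: Xist ran from 90.3 to 910 CPM among them, and 1 of their 4 columns matched no sample label, so that its animal is not known.

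Genes named for their response in APOE4 females were then followed in the other groups. Both terms reuse the 8 mice that chose these genes, so a difference in the direction that chose a gene is partly built in, and the values are a description. The log2 nPM response of Slc2a1 was -0.25 in APOE4 females, 0.17 in APOE3 females, 0.19 in APOE4 males and 0.32 in APOE3 males. In B6 mice, exposed for 8 weeks, it was 0.54 (SE 0.21) in females and -0.25 (SE 0.22) in males. The APOE4 female response differed from that of APOE3 females by -0.40 on the log2 scale (SE 0.12) and from that of APOE4 males by -0.45 (SE 0.12), both at p under 0.005. Tgtp1 had a log2 response of -0.94 in APOE4 females, -0.27 in APOE3 females, 0.15 in APOE4 males and 0.02 in APOE3 males, with a difference of -0.66 from APOE3 females (SE 0.19) and of -1.09 from APOE4 males (SE 0.22), both at p under 0.005. Il10rb was lower in females of both alleles (log2 -0.42 in APOE4 and -0.39 in APOE3 females, with a difference of -0.01, SE 0.16), and its response differed from that of APOE4 males by -0.37 (SE 0.12, p under 0.05). The difference in Bsg was 0.11 from APOE3 females (SE 0.19) and -0.23 from APOE4 males (SE 0.10, p under 0.05). Cldn22 differed from APOE4 males by -0.81 (SE 0.18, p under 0.005). Gm14305 (0.74 and 0.62) and Mir6390 (0.61 and 0.48), both low, had p under 0.005 in both comparisons.

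**Figure D5:**
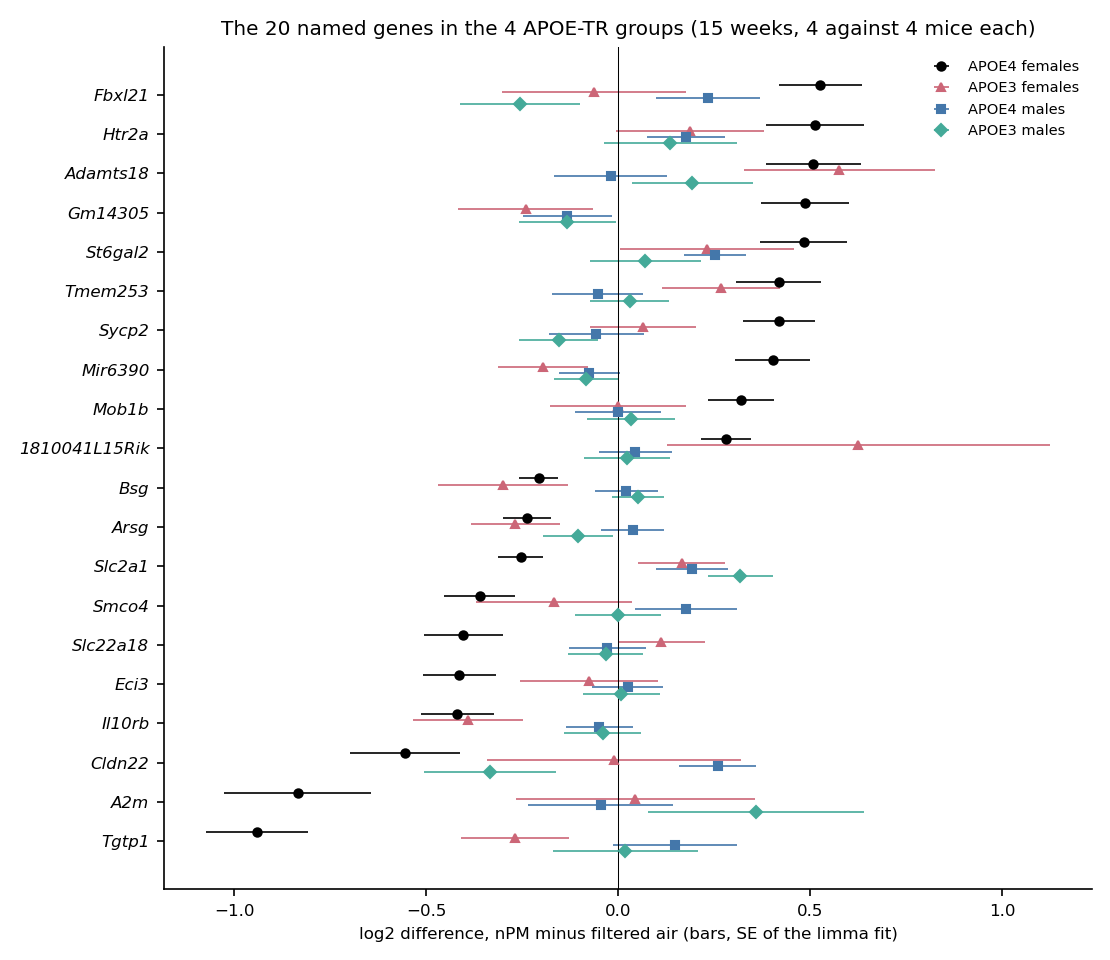
For the 10 increased and 10 decreased genes of smallest p in APOE4 females, the x axis gives the log2 difference (nPM minus filtered air) in each of the 4 APOE-TR groups, with bars for the SE of each limma fit. APOE4 female values were the ones that chose the genes; Slc2a1 lies at -0.25 in APOE4 females and between 0.17 and 0.32 in the other groups, and Il10rb lies near -0.4 in both female groups.

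Of the 24 decreased genes, 15 had the same sign in APOE3 females, 9 in APOE4 males and 8 in APOE3 males, and of the 19 increased genes 14, 11 and 10. In B6 females exposed for 8 weeks the sign was shared by 4 of the 12 decreased and 3 of the 12 increased genes tested, and in B6 males by 8 of 13 and 7 of 11. The share of all genes with the same sign in each pair of groups was not computed. These counts therefore do not show a shared or an opposed response.

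The gene lists were chosen with earlier results of these data known, and both terms reuse the APOE4 females. A list difference in the direction the list took in those females is thus partly built in, and the list values that follow are a description. The interferon list had a median response of -0.38 in APOE4 females, -0.03 in APOE3 females, 0.15 in APOE4 males and 0.00 in APOE3 males. Against APOE4 males, 14 of its 36 members had a lower response at p under 0.05 (38.9%, against 2.75% of all genes), with a median difference of -0.45, and 9 (25.0%) with a median of -0.29 without control 21. Against APOE3 females 2 of 36 did (5.56%, against 5.52% of all genes), with a median of -0.35 and 33 of 36 below 0, and without control 21 the median was -0.19, with 25 of 36 below 0. The endothelial list had a median response of -0.31 in APOE4 females, 0.08 in APOE3 females, 0.05 in APOE4 males and 0.11 in APOE3 males. Its response was lower than in APOE4 males at p under 0.05 for 9 of 22 members (40.9%), and for 8 without control 21, and lower than in APOE3 females for 3 of 22 (13.6%). The median response of NMDA and AMPA receptor genes was 0.54 in APOE3 females and 0.12 in APOE4 females, with 1 of 18 differences lower and 1 higher at p under 0.05, near the shares of all genes (5.52% lower and 5.58% higher). For oxidative phosphorylation genes it was -0.59 and -0.11, with 7 of 74 differences higher (against 5.58% of all genes), and 4 without control 21.

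The other genes of smallest p in these differences were, against APOE3 females, Ccdc18 (log2 difference 1.16, SE 0.21), Msrb2, a methionine sulfoxide reductase (0.66, SE 0.13), and Krt10 (0.98, SE 0.20) with higher responses, and Myh2 (-0.70, SE 0.16), Camkk1, a kinase upstream of CaM kinases (-0.63, SE 0.15), and Eif4ebp3 (-1.03, SE 0.25) with lower ones. Against APOE4 males they were Ccdc163 (-0.66, SE 0.17), with a lower response, and Mylk4 (0.58, SE 0.14) and Ptgs2, the inducible cyclooxygenase COX-2 (0.54, SE 0.13), with higher ones. None of these 9 genes was among the 43 called in APOE4 females.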

How the data were processed

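Total cerebral cortex RNA was sequenced by the authors as single-end reads from stranded mRNA libraries. Per the labels and methods, reads were aligned with TopHat2 2.0.8b in Partek to mm10, keeping unique alignments. The authors deposited CPM per gene, whose scale is not given in the sources used here. Column sums ran from 670445 to 699316, and 96.4 to 97.1% of values within 20 steps of the column minimum were whole multiples of it (tolerance 0.1), so reads were recovered as value over minimum, minus 1. Recovered counts were used for depth, the filter, and the edgeR and DESeq2 alternatives.

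The main test was limma 3.58.1 (R 4.3.3), with a variance trend, on log2(TMM-scaled CPM + 0.5), over the 8 APOE4 females. TMM factors came from edgeR 4.0.16, and p-values were adjusted by Benjamini-Hochberg over all genes tested. Differences between responses were interaction terms over 16 mice. The script was tested on simulated data. The animals, 46 gene lists and tests were chosen with earlier results of these data known. Named were the 10 genes of smallest p in each direction among those at p under 0.005, list members at that p, the member of each list with smallest p in each direction, genes named for cortex RNA in the study, the 3 of smallest p in each direction of each difference, label checks and defining markers. Other genes were named after their values were seen. Alternatives covered pseudocounts, scaling, filters, voom, variance trend, sample weights, spread shared over 32 mice, edgeR, DESeq2 1.42.0, and leaving out each mouse. Leave-one-out fits of lists and of all called genes were added after seeing the data. An APOE3 female control column that matches no label was used by group only. RefSeq promoters were of GRCm38.p6, the same build as mm10. Gene positions are those of the deposited table, with its exclusive stop made inclusive. Transcript length was the median over the GENCODE transcripts of each gene. Values of some genes are not reported here.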

Additional observations from a re-analysis of the deposited data

Results flagged for a closer look

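Within groups of 4 animals, a value was singled out when its gap to the nearest other, as a share of the range, passed Dixon's critical value for 4 samples. This held for 11 of 138 groups of named genes and lists, where chance at 1 in 20 gives 6.9. Control 21 was the outlying animal in 6 of the 11: highest on interferon response genes (0.920), antigen presentation genes (0.862), glucose transport and glycolysis genes (0.842), microglia markers (0.883) and disease-associated microglia genes (0.876), and lowest for Fbxl21 (0.859). Control 7 was highest on the aryl hydrocarbon receptor pathway (0.905). Among nPM mice, 23 was highest for Tgtp1 (0.879) and 08 for Sycp2 (0.909), and 08 was lowest on antigen presentation genes (0.934) and on meningeal and fibroblast markers (0.864).

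The nPM response of APOE4 females differed from that of APOE3 females at an unadjusted p under 0.005, with no adjusted p under 0.05 in the main limma fit, by these log2 differences: -0.66 for Tgtp1, -0.40 for Slc2a1, -0.51 for Slc22a18, 0.74 for Gm14305, 0.61 for Mir6390, -0.70 for Myh2, -0.63 for Camkk1, -1.03 for Eif4ebp3, 1.16 for Ccdc18, 0.66 for Msrb2 and 0.98 for Krt10. It differed from that of APOE4 males by -1.09 for Tgtp1, -0.44 for Eci3, -0.45 for Slc2a1, -0.54 for Smco4, -0.81 for Cldn22, 0.62 for Gm14305, 0.48 for Mir6390, -0.66 for Ccdc163, 0.58 for Mylk4 and 0.54 for Ptgs2.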

How the results depend on the processing

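All 43 genes called in APOE4 females kept their direction in each alternative where they were tested. With the same mice, and groups without overlap in 39 of the 43, a change of direction was hardly possible. Over 24 named genes, the call held in 367 of 475 gene and setting pairs, and Tgtp1 and Il10rb kept it in all 20 of their settings. Counts moved more. The 43 called genes (19 increased, 24 decreased) became 72 (37 increased) without a variance trend and 86 (40 increased, 46 decreased) with DESeq2, which also called 1 gene at 5% FDR (Tgtp1, log2 -1.53, adjusted p = 0.0180). edgeR called 41, and none at 5% FDR. Leaving out 1 mouse gave from 15 (without nPM 27) to 89 (without control 38) called, 6 to 65 increased and 5 to 48 decreased. Other mice that moved a count by over 1.5 times were controls 7 and 26 and nPM 08 and 39. Without control 21, 37 were called, of which 19 were among the 43. With the spread shared over 32 mice 42 were called, of which 14 were among the 43. The 83 genes differing from APOE3 females became 1054 with sample weights, 64 without the unlabelled APOE3 control, and 34 (without APOE3 nPM 67) to 298 (without APOE3 control 52) when 1 mouse was left out. At 5% FDR, where the main fit called none of them, 1 gene passed with sample weights (Msrb2, log2 0.75, adjusted p = 0.0353, limma). Without APOE3 control 63, 1 gene passed as well (smallest adjusted p = 0.0275, limma). The 32 differing from APOE4 males became 52 without a variance trend and 24 to 73 (without APOE4 male control 91). The cause of these shifts was not tested. No paired analysis was run. The replicate numbers are animal numbers that the groups do not share, and the labels do not say whether animals were paired. Depth limits genes under 1 CPM: 12 of the 43 had a mean below it, and 8 had fewer than 10 reads in a mouse.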
